A study of Homo sapiens with 9 samples.

Results

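OV90CisR2 and OV90CisR1 are derivatives of the ovarian cancer cell line OV90 that the labels give as resistant, and this comparison asks how their messenger RNA differs from each other. Its members are the 6 libraries of these lines, 3 per line, out of 9 libraries in all, read across the 14233 of 43424 listed genes that held at least 1 CPM (counts per 1e6, scaled to the column total) in 3 of the 9 libraries. Per the labels, both derivatives were kept in MCDB-105 medium that contained cisplatin, and OV90, given as sensitive, was kept in MCDB-105 medium with fetal bovine serum and no drug is named for it. Both lines therefore share the label and the exposure, so neither differs between them as far as the labels say, and the dose, the way each line was derived and whether a line is 1 clone are not given there. QuantSeq libraries, which sample the 3' end of each messenger RNA, were sequenced, and the series title names epithelial-mesenchymal transition. It is not stated that replicates came from separate cultures, and a p-value here reflects how far these particular samples vary, which may be technical variation alone.

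Cisplatin forms DNA adducts that block replication and transcription, and cells that survive it are commonly described with changed drug transport, detoxification, DNA repair, death signalling or cell state. Epithelial-mesenchymal transition is a change of cell state in which junction and keratin genes give way to matrix, cytoskeletal and motility genes, under transcription factors such as those of the SNAI, ZEB and TWIST families. HOX genes, Wnt, Hedgehog, BMP and Hippo signalling set positional and tissue identity in the embryo and are often reused in carcinoma.

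Libraries held 5825708 to 7607679 recovered reads. OV90CisR1 replicate 3 stood apart: its log2 values correlated with the other OV90CisR1 libraries at 0.941 and 0.942, whereas those correlated with each other at 0.980 and the OV90CisR2 libraries among themselves at 0.978 to 0.982. OV90 replicate 3 also stood apart, at 0.955 and 0.957 against 0.979, and OV90 enters the fit through the shared estimate of the spread. The summed level of 17 ovarian carcinoma markers was 249.9 to 299.9 normalised reads in OV90CisR2 and 262 to 349 in OV90CisR1, with 7 of them at 0 in OV90CisR2 and 6 in OV90CisR1. MUC1, EPCAM and KRT8 were present in every library of both lines, CLDN3, KRT19 and WFDC2 were at 0 in both, and PAX8 and MUC16 had 0 reads in OV90CisR2 and 1 read each in OV90CisR1. The summed level of 17 fibroblast and endothelial markers was 4808 to 6200 in OV90CisR2 and 7548 to 12395 in OV90CisR1, with PECAM1, VWF, KDR and CLDN5 at 0 reads in both lines. The summed level of 17 leukocyte markers was 37.8 to 50.1 in OV90CisR2 and 82.0 to 144.6 in OV90CisR1, with CD3D, CD3E, FCGR3A, GNLY, MS4A1 and NKG7 at 0 in both. CD68, a lysosomal protein of macrophages that other cells also carry, was the only leukocyte marker tested, and the part of such cells in the results was not tested.

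Between the 2 derivatives, 1433 of 14233 genes (10.1%) passed an adjusted p of 0.05 in limma, with 735 (5.16%) higher and 698 (4.90%) lower in OV90CisR2. Counts for the gene lists below stand beside these shares of all tested genes. A change of at least 2-fold was reached by 379 of the higher genes (2.66% of those tested) and 294 of the lower (2.07%). The median log2 fold change over all tested genes was 0.03. Values of the 2 lines did not overlap for 1430 of the 1433 called genes and for 5353 of all tested genes (37.6%). Levels are in normalised reads, and fold changes, always OV90CisR2 minus OV90CisR1, are on the log2(value + 1) scale with their standard error (SE), which understates the change of low genes. The number of calls depended on single libraries: it was 450, 663 and 442 without OV90CisR2 replicate 1, 2 and 3, 952 without OV90CisR1 replicate 1 and 2327 without OV90 replicate 3. Without both libraries that stood apart it was 3750.

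**Figure D1:**
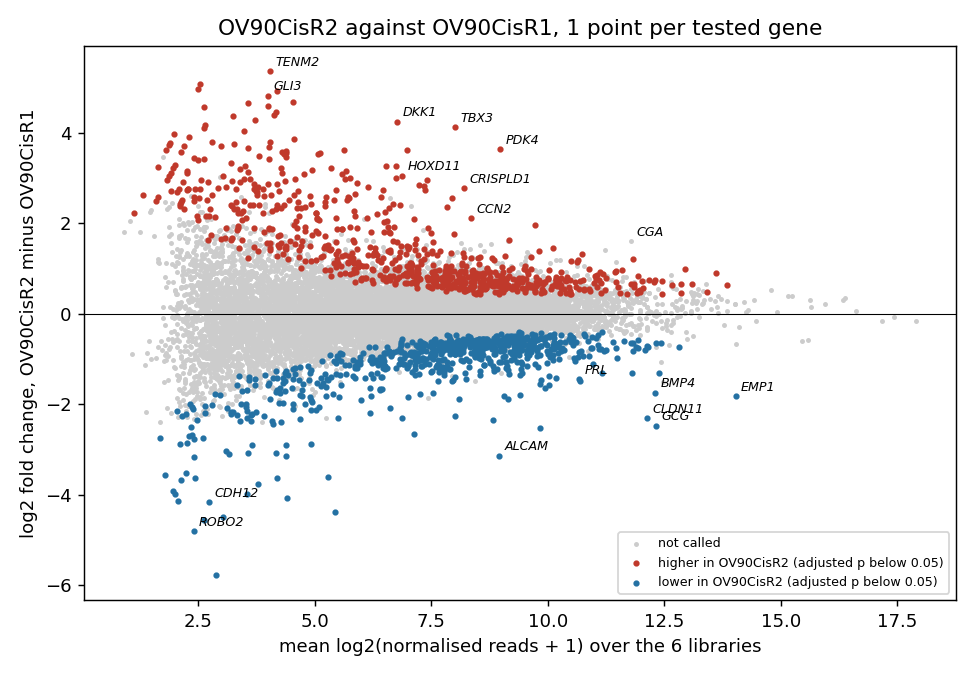
Log2 fold change of OV90CisR2 minus OV90CisR1 (vertical axis) against the mean log2(normalised reads + 1) over the 6 libraries (horizontal axis), 1 point per tested gene, with called genes coloured. The 735 higher and 698 lower genes lie on both sides of 0 at every level, and TBX3, DKK1 and PDK4 are among the largest rises and ALCAM, GCG and EMP1 among the largest falls of the well measured genes.

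The largest rises among well measured genes were those of DKK1, TBX3, PDK4, TRAPPC3L, BEX1, DLX5, S100A10, CRISPLD1, LUM, TMSB15A, GJA1 and BICC1, out of 82 genes that met the rule for such rises. The rules for rises and for falls admit only genes whose lines did not overlap in value. TBX3, a T-box repressor that acts in limb and mammary development, had 1009, 1166 and 1079 normalised reads in OV90CisR2, against 53.7, 58.3 and 71.9 in OV90CisR1. Its log2 fold change was 4.13 ± 0.20 (SE; adjusted p = 2.42e-06 in limma), while OV90 had 49.4, 43.8 and 71.1. The OV90CisR2 libraries thus stood far above all 3 OV90CisR1 libraries, whose values lay within the OV90 range or just above it. DKK1, a secreted antagonist of canonical Wnt signalling, had 474, 417 and 545 normalised reads in OV90CisR2, against 26.9, 35.0 and 14.6 in OV90CisR1. OV90 held 4.11, 0 and 8.09, and the log2 fold change was 4.25 ± 0.65 (SE; adjusted p = 0.00313 in limma). This call was lost with a pseudocount of 0.1 (adjusted p = 0.0566). PDK4, a kinase that turns off pyruvate dehydrogenase and so spares glucose, had 1699, 1692 and 1948 normalised reads in OV90CisR2, against 129, 136 and 159.6 in OV90CisR1. It was near absent from OV90, at 4.11, 6.81 and 0, and the log2 fold change was 3.65 ± 0.57 (SE; adjusted p = 0.00341 in limma), with an adjusted p of 0.0785 at a pseudocount of 0.1. Each line was thus above OV90 for PDK4, and OV90CisR2 above OV90CisR1.

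S100A10, the annexin A2 partner that anchors plasminogen-activating complexes at the cell surface, had 426, 393 and 475 normalised reads in OV90CisR2, against 84.7, 63.6 and 39.3 in OV90CisR1. OV90 held 556, 454 and 436, and the log2 fold change was 2.83 ± 0.24 (SE; adjusted p = 0.000126 in limma). OV90CisR2 thus lay near OV90 in level while OV90CisR1 was low. BEX1, a small adaptor of neurotrophin signalling, had 459.5, 508 and 456 normalised reads in OV90CisR2, against 64.0, 45.6 and 75.3 in OV90CisR1. In OV90 it had 1062, 913 and 323, and its log2 fold change was 2.95 ± 0.37 (SE; adjusted p = 0.00105 in limma). For both genes the line that stood out was therefore OV90CisR1. DLX5, a homeobox factor of skeletal and craniofacial development, had 462, 315 and 450.4 normalised reads in OV90CisR2, against 85.7, 64.7 and 30.3 in OV90CisR1, with 77.1, 94.4 and 158 in OV90 and a log2 fold change of 2.84 ± 0.37 (SE; adjusted p = 0.00128 in limma). GJA1, the gap junction protein connexin 43, had 581, 528 and 680.1 normalised reads in OV90CisR2, against 100.2, 116 and 86.5 in OV90CisR1, with 37.0, 38.9 and 171 in OV90 and a log2 fold change of 2.56 ± 0.46 (SE; adjusted p = 0.00684 in limma). Neither gene's groups overlapped, as the rule required. BICC1, an RNA-binding regulator of left-right patterning, had 275, 255 and 251 normalised reads in OV90CisR2, against 63.0, 35.0 and 50.6 in OV90CisR1, with a log2 fold change of 2.41 ± 0.21 (SE; adjusted p = 0.000152 in limma). TRAPPC3L, a paralogue of a vesicle-tethering subunit, had 417, 496 and 423 normalised reads in OV90CisR2, against 14.5, 40.3 and 71.9 in OV90CisR1, with a log2 fold change of 3.63 ± 0.57 (SE; adjusted p = 0.00352 in limma), which was 3.02 without OV90CisR1 replicate 1. Its locus overlaps that of CALHM4, so reads of the 2 cannot be fully told apart. TMSB15A, a thymosin that binds actin, had a log2 fold change of 2.73 ± 0.18 (SE; adjusted p = 3.45e-05 in limma), and a near-identical copy makes its counting uncertain.

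The largest falls were those of ALCAM, KCNJ2, GCG, SLIT2, CLDN11, KCNJ4, VWA1, PLPPR4, EMP1, SLC17A5 and WNT5A and 1 uncharacterised locus, out of 101 genes that met the rule for such falls. ALCAM, an immunoglobulin-family adhesion molecule also known as CD166, had 163, 185 and 155 normalised reads in OV90CisR2, against 1582, 1394 and 1461 in OV90CisR1. In OV90 it had 85.4, 96.4 and 88.1, and the log2 fold change was -3.14 ± 0.14 (SE; adjusted p = 1.32e-06 in limma). All 3 OV90CisR1 libraries therefore lay apart from the other 6. CLDN11, a tight junction claudin of myelin and Sertoli cells, had 1903, 2104 and 2008 normalised reads in OV90CisR2, against 10461, 9661 and 9579 in OV90CisR1. OV90 held 1803, 1796 and 3291, and the log2 fold change was -2.30 ± 0.20 (SE; adjusted p = 0.000152 in limma). EMP1, a tetraspan membrane protein, was among the most abundant of these genes, with 9221, 8132 and 9474 normalised reads in OV90CisR2, against 35301, 36349.7 and 24259.8 in OV90CisR1. In OV90 it was 13445, 12301 and 15084, and its log2 fold change was -1.82 ± 0.17 (SE; adjusted p = 0.000250 in limma). GCG, the precursor of glucagon, had 2325, 1901 and 2276 normalised reads in OV90CisR2, against 17753, 18124 and 5335 in OV90CisR1, with 3540.5, 2747 and 6179 in OV90 and a log2 fold change of -2.47 ± 0.42 (SE; adjusted p = 0.00548 in limma). OV90CisR1 replicate 3 was much lower than the other 2 OV90CisR1 libraries for GCG but still above every OV90CisR2 library. SLC17A5, the lysosomal sialic acid exporter, had 283, 283 and 279 normalised reads in OV90CisR2, against 952, 1136 and 909 in OV90CisR1, and its log2 fold change was -1.82 ± 0.15 (SE; adjusted p = 0.000113 in limma). KCNJ2 and KCNJ4, which encode inward rectifier potassium channels, both fell. KCNJ2 had 66.5, 29.7 and 82.7 normalised reads in OV90CisR2, against 525, 465 and 175 in OV90CisR1, with a log2 fold change of -2.65 ± 0.52 (SE; adjusted p = 0.0104 in limma). KCNJ4 had 111, 149 and 96.8 normalised reads in OV90CisR2, against 551, 432 and 736 in OV90CisR1, with a log2 fold change of -2.25 ± 0.26 (SE; adjusted p = 0.000668 in limma). VWA1, a matrix protein of cartilage and nerve, fell by 1.89 on the log2 scale (adjusted p = 0.00252 in limma). PLPPR4, a lipid phosphatase-related protein of neurons, fell by 1.87 (adjusted p = 0.00294 in limma). OV90CisR1 was thus the line with high values for all of these genes.

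**Figure D2:**
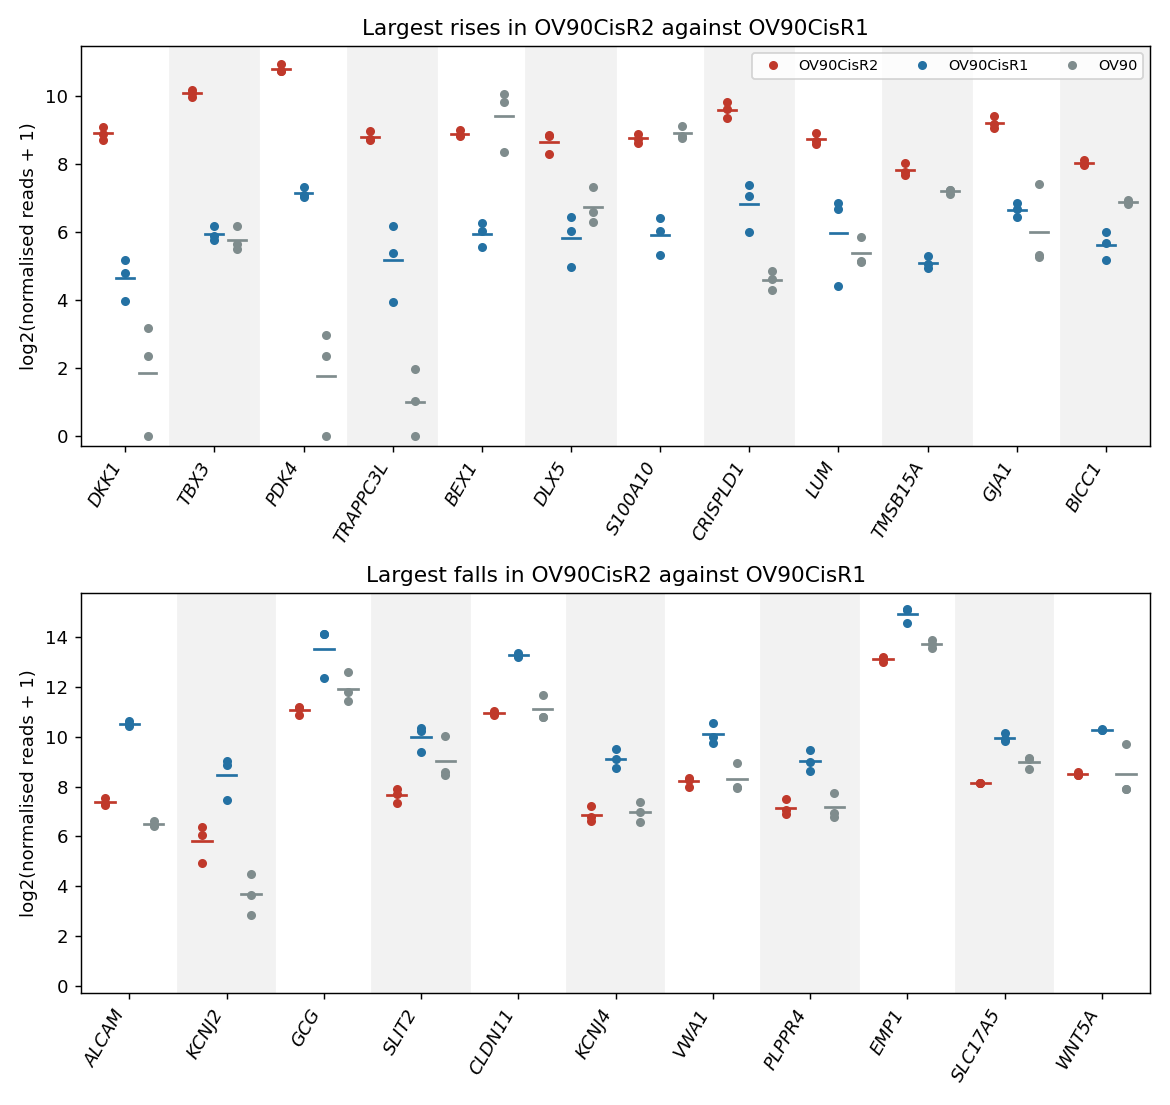
Log2(normalised reads + 1) of the genes with the largest rises (upper panel) and falls (lower panel), with 1 point per library, a bar at the group mean, and OV90CisR2, OV90CisR1 and OV90 from left to right for each gene. In the upper panel all OV90CisR2 points lie above all OV90CisR1 points, as for TBX3 at 1009 to 1166 in OV90CisR2 against 53.7 to 71.9 normalised reads in OV90CisR1, and in the lower panel all lie below them. The rule that picked these genes required this.

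HOXD genes were higher in OV90CisR2, while few genes of the other HOX clusters passed the threshold. All 6 tested HOXD genes were higher in OV90CisR2 (5.16% of all tested genes were), whereas 1 of 9 HOXA genes, 0 of 8 HOXB genes and 0 of 9 HOXC genes passed it in limma. HOXD3, HOXD8, HOXD9 and HOXD13 reached 1 CPM in 3 libraries only with the help of the OV90CisR2 libraries, and HOXD1, HOXD4 and HOXD12 were not tested. For those that entered this way the filter favours a rise, so the 6 of 6 and the HOXD median are partly fixed by it. At an unadjusted p below 0.05 there were 4 HOXB and 3 HOXC genes, and at an adjusted p of 0.05 edgeR called 0 of either and DESeq2 2 HOXB genes. HOXA7 was the HOXA gene, and its call was lost without OV90CisR1 replicate 1 or 2 or any OV90CisR2 library (adjusted p = 0.0552 to 0.123). The median log2 fold change was 3.28 over HOXD, 0.49 over HOXA, -0.05 over HOXB and 0.30 over HOXC genes, against 0.03 over all tested genes. Summed normalised reads over 9 HOXD genes were 669 ± 35.3 in OV90CisR2, 72.2 ± 18.5 in OV90CisR1 and 3.65 ± 3.08 in OV90 (SD, n = 3 each). HOX genes are transcription factors whose order along the chromosome matches their order of use along the body axis, and the HOXD cluster is also used late in limb and genital development. Its promoter sequences, which follow, are shown because these genes moved together. They run from 250 bases before to 50 bases after an annotated start (RefSeq, GRCh38.p14, in the orientation of the gene), which for HOXD3 lies inside the span of the gene and not at its first base, and lie at chr2:176107030-176107329 for HOXD11, chr2:176116528-176116827 for HOXD10, chr2:176129455-176129754 for HOXD8 and chr2:176157057-176157356 for HOXD3. All 4 are on the plus strand of chromosome 2, and capitals mark the letters GGAATG or its complement CATTCC, a core that TEAD factors bind.
HOXD11: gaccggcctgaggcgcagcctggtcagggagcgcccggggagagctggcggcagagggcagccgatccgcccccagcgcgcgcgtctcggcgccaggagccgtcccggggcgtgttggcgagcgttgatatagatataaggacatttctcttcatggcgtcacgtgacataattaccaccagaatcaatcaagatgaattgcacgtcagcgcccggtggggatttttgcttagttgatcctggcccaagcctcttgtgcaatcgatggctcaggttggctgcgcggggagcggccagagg
HOXD10: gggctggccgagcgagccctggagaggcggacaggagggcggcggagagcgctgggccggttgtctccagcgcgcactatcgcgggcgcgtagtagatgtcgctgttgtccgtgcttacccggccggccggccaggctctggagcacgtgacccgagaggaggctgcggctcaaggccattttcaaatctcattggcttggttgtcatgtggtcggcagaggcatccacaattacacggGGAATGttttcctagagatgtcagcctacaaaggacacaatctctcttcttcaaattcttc
HOXD8: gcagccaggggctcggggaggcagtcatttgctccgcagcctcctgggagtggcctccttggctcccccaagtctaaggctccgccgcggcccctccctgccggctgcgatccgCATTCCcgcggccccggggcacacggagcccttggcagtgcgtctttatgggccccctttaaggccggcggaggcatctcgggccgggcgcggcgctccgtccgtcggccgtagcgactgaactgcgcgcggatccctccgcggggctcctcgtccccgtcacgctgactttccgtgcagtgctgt
HOXD3: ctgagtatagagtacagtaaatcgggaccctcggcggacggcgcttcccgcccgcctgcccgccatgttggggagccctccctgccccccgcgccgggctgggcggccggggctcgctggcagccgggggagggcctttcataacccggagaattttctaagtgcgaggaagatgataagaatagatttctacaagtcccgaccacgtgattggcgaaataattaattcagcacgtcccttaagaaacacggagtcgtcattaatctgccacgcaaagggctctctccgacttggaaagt

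HOXD11 and HOXD10 held the most reads of the cluster in OV90CisR2, counted at the 3' end. HOXD11 had 304, 375 and 338 normalised reads in OV90CisR2, against 26.9, 46.7 and 49.4 in OV90CisR1, with 5.14, 0.973 and 0 in OV90, and a log2 fold change of 3.06 ± 0.54 (SE; adjusted p = 0.00631 in limma). HOXD10 had 132, 155 and 133 normalised reads in OV90CisR2, against 10.3, 17.0 and 21.3 in OV90CisR1, with 1.03, 0 and 0 in OV90, and a log2 fold change of 3.08 ± 0.41 (SE; adjusted p = 0.00141 in limma). For both genes each OV90CisR2 library exceeded each OV90CisR1 library, which in turn exceeded each OV90 library. HOXD9 had 77.8, 70.9 and 58.9 normalised reads in OV90CisR2, against 7.23, 1.06 and 13.5 in OV90CisR1, with a log2 fold change of 3.48 ± 0.69 (SE; adjusted p = 0.0109 in limma), which was 2.68 without OV90CisR1 replicate 2 and 4.08 without OV90CisR1 replicate 3. HOXD8 had 54.2, 47.2 and 77.4 normalised reads in OV90CisR2, against 1.03, 5.30 and 0 in OV90CisR1, with a log2 fold change of 4.66 ± 0.65 (SE; adjusted p = 0.00193 in limma), which was 5.38 and 4.05 without the same libraries. HOXD3 had 95 reads in the OV90CisR2 libraries and 1 read in the OV90CisR1 libraries, a ratio of 81.7 (95% counting interval 14.3 to 3260.4). The lines therefore did not overlap for any of these genes. HOXD13 had 23.5, 21.9 and 22.0 normalised reads in OV90CisR2, against 1.03, 7.42 and 3.37 in OV90CisR1 (log2 fold change 2.48 ± 0.59 (SE; adjusted p = 0.0251 in limma)). The HOXD13 call was lost on leaving out OV90CisR1 replicate 1 or any OV90CisR2 library (adjusted p = 0.0687 to 0.0985), and the HOXD9 call without OV90CisR2 replicate 1 (adjusted p = 0.0599). With a pseudocount of 0.1, HOXD9, HOXD11 and HOXD13 missed the threshold (adjusted p = 0.0744, 0.0912 and 0.116).

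Other transcripts of the region, chosen after their values were seen, behaved in part alike. LINC01116, a long noncoding RNA further along chromosome 2, beyond MTX2, had 74.7, 85.7 and 90.6 normalised reads in OV90CisR2, against 5.17, 3.18 and 1.12 in OV90CisR1, with a log2 fold change of 4.47 ± 0.61 (SE; adjusted p = 0.00184 in limma). The MIR10B locus, between HOXD4 and HOXD8, held 30.7, 38.5 and 34.3 normalised reads in OV90CisR2, against 1.03, 3.18 and 1.12 in OV90CisR1 with a log2 fold change of 3.75 ± 0.51 (SE; adjusted p = 0.00169 in limma), which reports polyadenylated transcripts over it and not the mature microRNA. HAGLR had 40 reads in OV90CisR2 and 3 in OV90CisR1, a ratio of 11.5 (95% counting interval 3.65 to 57.9), and its call was lost on leaving out OV90CisR1 replicate 1 or 3 or any OV90CisR2 library (adjusted p = 0.0550 to 0.104). HAGLROS had 42 reads in OV90CisR2 and 0 in OV90CisR1, at least 3.998-fold higher when compared with a floor of 3 reads per library. HAGLR overlaps HOXD1 and HAGLROS lies within HAGLR, as HOXD3 and HOXD4 share part of their spans, and strand handling is not given in the sources used here, so reads of these genes cannot be assigned with certainty. MTX2, the metaxin gene beyond the end of the cluster, had 171, 116 and 186 normalised reads in OV90CisR2, against 163, 141 and 53.9 in OV90CisR1 and an adjusted p of 0.378. Its groups overlapped, so a difference at MTX2 was not detected.

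**Figure D3:**
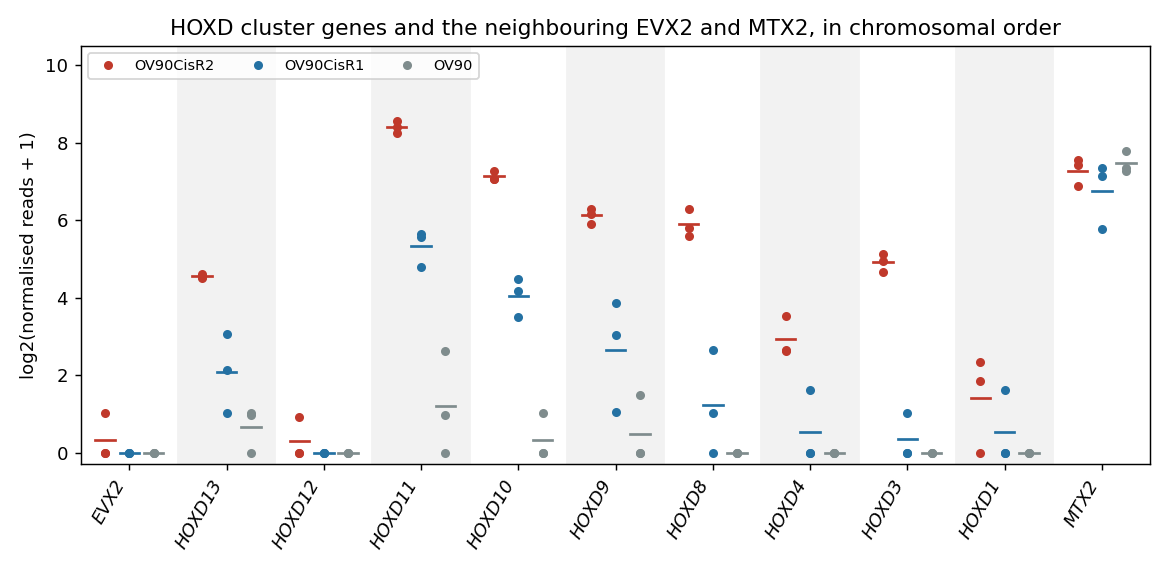
Log2(normalised reads + 1) of the HOXD genes and the flanking EVX2 and MTX2, with 1 point per library, a bar at the group mean, and OV90CisR2, OV90CisR1 and OV90 from left to right. The 6 tested HOXD genes are high in OV90CisR2, lower in OV90CisR1 and near 0 in OV90, with HOXD11 at 304 to 375 in OV90CisR2 against 26.9 to 49.4 normalised reads in OV90CisR1, while the points of MTX2 overlap between groups.

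Wnt signalling genes changed on both the ligand and the antagonist side. Of 31 tested Wnt ligands, receptors and modulators, 6 were higher (DKK1, SFRP4, DKK2, WLS, DKK3 and FZD6) and 2 lower (WNT5A and PORCN), and the median log2 fold change was -0.10, which turned to 0.01 without OV90CisR1 replicate 1 or 2 and to 0.02 without OV90CisR2 replicate 2. On leaving out any OV90CisR2 library there were 2 rises and 1 fall, and without OV90CisR1 replicate 3 there were 5 falls. With all libraries 25.8% of this list was called, against 10.1% of all tested genes. WNT5A, a ligand that mostly signals without beta-catenin, had 349, 351 and 384 normalised reads in OV90CisR2, against 1273, 1244 and 1249 in OV90CisR1. The log2 fold change was -1.79 ± 0.38 (SE; adjusted p = 0.0147 in limma), OV90 held 237, 237 and 843, and the call was lost on leaving out any OV90CisR2 library (adjusted p = 0.0555 to 0.0659). SFRP4, a secreted Wnt-binding antagonist, had 69.6, 53.4 and 81.8 normalised reads in OV90CisR2, against 5.17, 8.48 and 2.25 in OV90CisR1, with a log2 fold change of 3.57 ± 0.51 (SE; adjusted p = 0.00206 in limma). PORCN, the acyltransferase that Wnt ligands need for secretion, had 66.5, 72.6 and 68.6 normalised reads in OV90CisR2, against 161, 140.0 and 184 in OV90CisR1, with a log2 fold change of -1.20 ± 0.20 (SE; adjusted p = 0.00428 in limma). Among called genes OV90CisR2 thus had more DKK1, DKK2, DKK3 and SFRP4 and less WNT5A and PORCN, while WLS and FZD6 were higher too. The FZD6 call was lost without OV90 replicate 1 or 2, OV90CisR1 replicate 2 or 3 or any OV90CisR2 library (adjusted p = 0.0626 to 0.187 in limma). The DKK3 call was lost without OV90 replicate 1, OV90CisR1 replicate 2 or any OV90CisR2 library (adjusted p = 0.0501 to 0.141 in limma). Among 14 tested Wnt and beta-catenin targets, LEF1 and TCF7 rose and 0 fell (14.3% called, against 10.1% of all tested genes). The median was 0.32, and 0.0071 without OV90CisR1 replicate 3. Falls also numbered 0 at an unadjusted p below 0.05 in limma and 0 with edgeR or DESeq2. LEF1, a DNA-binding partner of beta-catenin, had 77.8, 63.9 and 95.9 normalised reads in OV90CisR2, against 2.07, 4.24 and 1.12 in OV90CisR1, with 0, 1.95 and 2.70 in OV90 and a log2 fold change of 4.61 ± 0.56 (SE; adjusted p = 0.000971 in limma). TCF7 rose by 0.67 on the log2 scale (adjusted p = 0.0417 in limma), a call that was lost on leaving out any OV90CisR2 or OV90CisR1 library or OV90 replicate 2 (adjusted p = 0.0566 to 0.143). DKK2, a relative of DKK1, had 45.0, 35.9 and 27.3 normalised reads in OV90CisR2, against 4.13, 3.18 and 5.62 in OV90CisR1, and the call was lost without OV90CisR1 replicate 1 or 2 or any OV90CisR2 library (adjusted p = 0.0517 to 0.0944). LEF1 and DKK2 reached the filter only through the OV90CisR2 libraries, which favours a rise.

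Hedgehog genes, chosen after their values were seen, are given as 3 that rose and 4 that did not pass. SHH, the ligand, had 40 reads in OV90CisR2 and 0 in OV90CisR1, at least 3.85-fold higher against a floor of 3 reads per library (adjusted p = 0.00597 in limma). HHIP, a decoy that binds Hedgehog ligands, had 61 reads in OV90CisR2 and 1 in OV90CisR1, a ratio of 52.5 (95% counting interval 9.07 to 2105.5). GLI3, the pathway's main repressor, had 82.9, 106 and 68.6 normalised reads in OV90CisR2, against 3.10, 2.12 and 1.12 in OV90CisR1, with a log2 fold change of 4.83 ± 0.53 (SE; adjusted p = 0.000576 in limma). All 3 genes were near the floor in OV90CisR1 and reached the filter only through the OV90CisR2 libraries, which favours a rise. GLI1, GLI2, PTCH1 and SMO, activators, a receptor and the transducer, had adjusted p of 0.740, 0.102, 0.284 and 0.938 in limma. PTCH1 had 462, 366 and 443 normalised reads in OV90CisR2, against 395, 327 and 146 in OV90CisR1, and its groups overlapped. A difference in PTCH1 was therefore not detected, and pathway activity was not tested.

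BMP and activin genes that passed the threshold were all lower in OV90CisR2. Of 31 tested, 0 rose and 6 fell (4.90% of all tested genes fell), with a median log2 fold change of -0.17, which ranged from -0.28 to -0.07 as single libraries were left out. Of rises, edgeR called 0 and DESeq2 1, and 4 had an unadjusted p below 0.05. The 6 were the ligands GDF15, BMP4, INHBA and BMP7 and the receptors BMPR1A and BMPR2. BMP4, a morphogen that drives mesoderm and epithelial fates, had 2909.6, 2439 and 2929 normalised reads in OV90CisR2, against 9339, 8721 and 9539 in OV90CisR1. OV90 held 2749.7, 2941 and 3285, and the log2 fold change was -1.74 ± 0.13 (SE; adjusted p = 3.99e-05 in limma). BMP7 had 88.0, 81.4 and 87.1 normalised reads in OV90CisR2, against 199, 171 and 193 in OV90CisR1 (log2 fold change -1.12 ± 0.17 (SE; adjusted p = 0.00321 in limma)). For both ligands OV90CisR1 was the line that stood out, at more than the OV90CisR2 and OV90 values in every library. GDF15, a stress-induced member of the family, had 12.3, 9.62 and 8.80 normalised reads in OV90CisR2, against 46.5, 53.03 and 42.7 in OV90CisR1, with a log2 fold change of -2.11 ± 0.28 (SE; adjusted p = 0.00163 in limma). BMPR1A had 350.0, 383 and 352 normalised reads in OV90CisR2, against 972, 984 and 796 in OV90CisR1, and fell by 1.33 on the log2 scale (adjusted p = 0.000283 in limma). BMPR2 had 629, 639 and 731 normalised reads in OV90CisR2, against 1119, 1159 and 1173 in OV90CisR1, and fell by 0.79 (adjusted p = 0.00402 in limma). INHBA, a subunit of activin, had 7.16, 4.37 and 5.28 normalised reads in OV90CisR2, against 16.5, 30.8 and 15.7 in OV90CisR1 and lost its call without OV90CisR1 replicate 2 or OV90CisR2 replicate 2 or 3 (adjusted p = 0.0524 to 0.0601). Among TGF-beta genes, TGFB1 and TGFB2 fell with log2 fold changes of -1.13 ± 0.20 (SE; adjusted p = 0.00611 in limma) and -0.85 ± 0.15 (SE; adjusted p = 0.00659 in limma). Of 22 tested in that list, 1 rose and 2 fell (13.6% called, against 10.1% of all tested genes).

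Targets of YAP and TEAD, the effectors of the Hippo pathway, had 4 rises and 1 fall among 28 tested (NT5E, CCN2, AMOTL1 and CRIM1, against TGFB2). Of this list 17.9% was called, against 10.1% of all tested genes. The median log2 fold change of 0.21 turned to -0.05 without OV90CisR1 replicate 3, and there were 2 rises on leaving out any 1 OV90CisR2 library. CCN2, a matricellular growth factor partner, had 702, 589.6 and 774 normalised reads in OV90CisR2, against 190.1, 164 and 124 in OV90CisR1, with 542, 498 and 547 in OV90 and a log2 fold change of 2.12 ± 0.17 (SE; adjusted p = 0.000113 in limma). NT5E, the surface enzyme CD73, had 34.8, 29.7 and 35.2 normalised reads in OV90CisR2, against 3.10, 9.55 and 2.25 in OV90CisR1, and its call was lost without OV90CisR1 replicate 1 or any OV90CisR2 library (adjusted p = 0.0643 to 0.0935). CRIM1, a transmembrane BMP binder, rose by 0.996 on the log2 scale (adjusted p = 0.0460 in limma), with adjusted p of 0.0508 to 0.165 in 7 of the 9 fits that left out a library. CCN2 had the lowest adjusted p of the 4 rises. AMOTL1, an angiomotin that binds YAP, rose by 1.18 on the log2 scale (adjusted p = 0.00347 in limma). The promoter of CCN2 is shown as that of a YAP and TEAD target and that of DKK1, from the Wnt list, beside it as the promoter of a gene with one of the largest rises, with the TEAD core and TATA box (TATAAA) in capitals. They lie at chr6:131951323-131951622 on the minus strand of chromosome 6 and chr10:52314031-52314330 on the plus strand of chromosome 10.
CCN2: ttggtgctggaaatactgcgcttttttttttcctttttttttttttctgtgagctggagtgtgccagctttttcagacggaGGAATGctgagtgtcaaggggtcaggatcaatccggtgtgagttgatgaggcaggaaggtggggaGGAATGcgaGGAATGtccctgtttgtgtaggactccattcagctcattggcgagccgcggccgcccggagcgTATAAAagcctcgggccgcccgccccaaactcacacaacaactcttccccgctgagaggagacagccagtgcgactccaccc
DKK1: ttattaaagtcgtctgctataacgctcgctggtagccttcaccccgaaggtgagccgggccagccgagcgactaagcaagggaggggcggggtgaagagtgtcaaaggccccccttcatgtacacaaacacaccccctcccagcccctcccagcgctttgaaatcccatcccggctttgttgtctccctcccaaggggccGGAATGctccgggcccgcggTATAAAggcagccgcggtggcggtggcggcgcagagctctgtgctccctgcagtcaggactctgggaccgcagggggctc

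The CCN2 window held GGAATG on either strand 3 times, that of DKK1 1 time, those of HOXD8 and HOXD10 1 time each and those of HOXD11 and HOXD3 not at all. Over the 11004 tested genes with a RefSeq promoter of the same length, 10.7% held it, against 15.3% of 287 genes at least 2-fold higher and 15.8% of 202 at least 2-fold lower in OV90CisR2. Promoters on chromosome 8 were left out of these groups. A TATA box stood in 5.29% of tested promoters, 10.1% of those at least 2-fold higher and 8.91% of those at least 2-fold lower. CTTTGAT, a core of TCF and LEF sites, stood in 1.43%, 2.09% and 0.99%, and GACCACCCA, a GLI site, in 0.236%, 0 and 0.495%, of the same groups. For the TEAD core and the TATA box the shares of higher and lower genes lay near each other, the TCF and GLI shares of higher and of lower genes rest on at most 6 promoters each, and a match describes the window only.

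Matrix genes rose more often than they fell. Of 39 tested collagens and matrix glycoproteins, 11 rose and 4 fell (38.5% called, against 10.1% of all tested genes), and the median log2 fold change was 0.09. That median was -0.07 without OV90CisR1 replicate 3, and without both libraries that stood apart 15 rose and 9 fell. FN1, fibronectin, had 75.7, 60.4 and 73.9 normalised reads in OV90CisR2, against 17.6, 13.8 and 11.2 in OV90CisR1. OV90 held 55.5, 55.5 and 73.8, and the log2 fold change was 2.24 ± 0.26 (SE; adjusted p = 0.000657 in limma). POSTN, the matricellular protein periostin, had 211, 149.6 and 201 normalised reads in OV90CisR2, against 42.4, 56.2 and 46.1 in OV90CisR1. OV90 held 3.08, 2.92 and 2.70, and the log2 fold change was 1.93 ± 0.26 (SE; adjusted p = 0.00150 in limma). LUM, the collagen-binding proteoglycan lumican, had 410.4, 387 and 482 normalised reads in OV90CisR2, against 101, 116 and 20.2 in OV90CisR1, with a log2 fold change of 2.75 ± 0.52 (SE; adjusted p = 0.00897 in limma) that was 1.96 without OV90CisR1 replicate 3. CRISPLD1, a secreted cysteine-rich protein, had 788, 653 and 905 normalised reads in OV90CisR2, against 133, 167 and 62.9 in OV90CisR1, with 23.7, 18.5 and 27.9 in OV90 and a log2 fold change of 2.78 ± 0.32 (SE; adjusted p = 0.000657 in limma). For these 4 genes no OV90CisR1 library reached the OV90CisR2 range. COL4A1 and COL4A2, paired chains of basement membrane collagen, rose together. COL4A1 had 143, 98.8 and 145 normalised reads in OV90CisR2, against 28.9, 28.6 and 10.1 in OV90CisR1 (log2 fold change 2.58 ± 0.48 (SE; adjusted p = 0.00787 in limma)), and COL4A2 had 172, 198 and 172 normalised reads in OV90CisR2, against 44.4, 49.8 and 36.0 in OV90CisR1 (log2 fold change 2.04 ± 0.35 (SE; adjusted p = 0.00602 in limma)). COL3A1, a fibrillar collagen, went the other way with 3898, 2565 and 3909 normalised reads in OV90CisR2, against 10330.0, 10527 and 5469.7 in OV90CisR1, with a log2 fold change of -1.31 ± 0.25 (SE; adjusted p = 0.00939 in limma). SPARC, a matrix glycoprotein that binds collagen, had 3 reads in OV90CisR2 and 34 in OV90CisR1, a ratio of 13.2 (95% counting interval 4.14 to 67.1) in favour of OV90CisR1. CCDC80, a secreted matrix protein, had 63.5, 106 and 81.8 normalised reads in OV90CisR2, against 305, 257 and 287 in OV90CisR1 and fell by 1.77 on the log2 scale (adjusted p = 0.00523 in limma). The summed fibroblast and endothelial markers given above were lower in OV90CisR2, as COL3A1 was and LUM, POSTN and ACTA2 were not, all of which are among them. Of 10 tested in that list 4 genes rose and 1 fell (50% called, against 10.1% of all tested genes), and the part of such cells was not tested.

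Matrix proteases fell more often than they rose: of 30 tested proteases and inhibitors, 1 was higher (MMP24) and 6 were lower (23.3% called, against 10.1% of all tested genes), with a median log2 fold change of -0.49. Without OV90 replicate 3 there were 3 rises and 10 falls, and without OV90CisR1 replicate 3 there were 10 falls. MMP14, the membrane protease that activates other metalloproteinases, had 618, 929 and 617 normalised reads in OV90CisR2, against 1887, 1481 and 2385 in OV90CisR1. OV90 held 701, 591 and 575, and the log2 fold change was -1.41 ± 0.20 (SE; adjusted p = 0.00228 in limma). MMP3, the secreted stromelysin, had 6.14, 13.1 and 13.2 normalised reads in OV90CisR2, against 123, 169 and 121 in OV90CisR1, with a log2 fold change of -3.60 ± 0.63 (SE; adjusted p = 0.00602 in limma). MMP1, an interstitial collagenase, had 12.3, 13.996 and 14.1 normalised reads in OV90CisR2, against 58.9, 64.7 and 62.9 in OV90CisR1, with 23.7, 24.3 and 17.1 in OV90 and a log2 fold change of -2.13 ± 0.26 (SE; adjusted p = 0.00100 in limma). ADAMTS5, an aggrecanase, had 125, 108 and 124 normalised reads in OV90CisR2, against 346, 317 and 345 in OV90CisR1, with a log2 fold change of -1.49 ± 0.14 (SE; adjusted p = 0.000241 in limma). OV90CisR2 was the lower line for each of them in every library. TIMP1, an inhibitor of these enzymes, had 74.7, 84.0 and 66.9 normalised reads in OV90CisR2, against 25.8, 55.1 and 33.7 in OV90CisR1 and did not pass (adjusted p = 0.0613 in limma), though it did without OV90 replicate 3 (adjusted p = 0.0349) and without OV90CisR1 replicate 2 (adjusted p = 0.0446). The MMP24 call was lost on leaving out any OV90CisR2 library (adjusted p = 0.0696 to 0.0921).

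**Figure D4:**
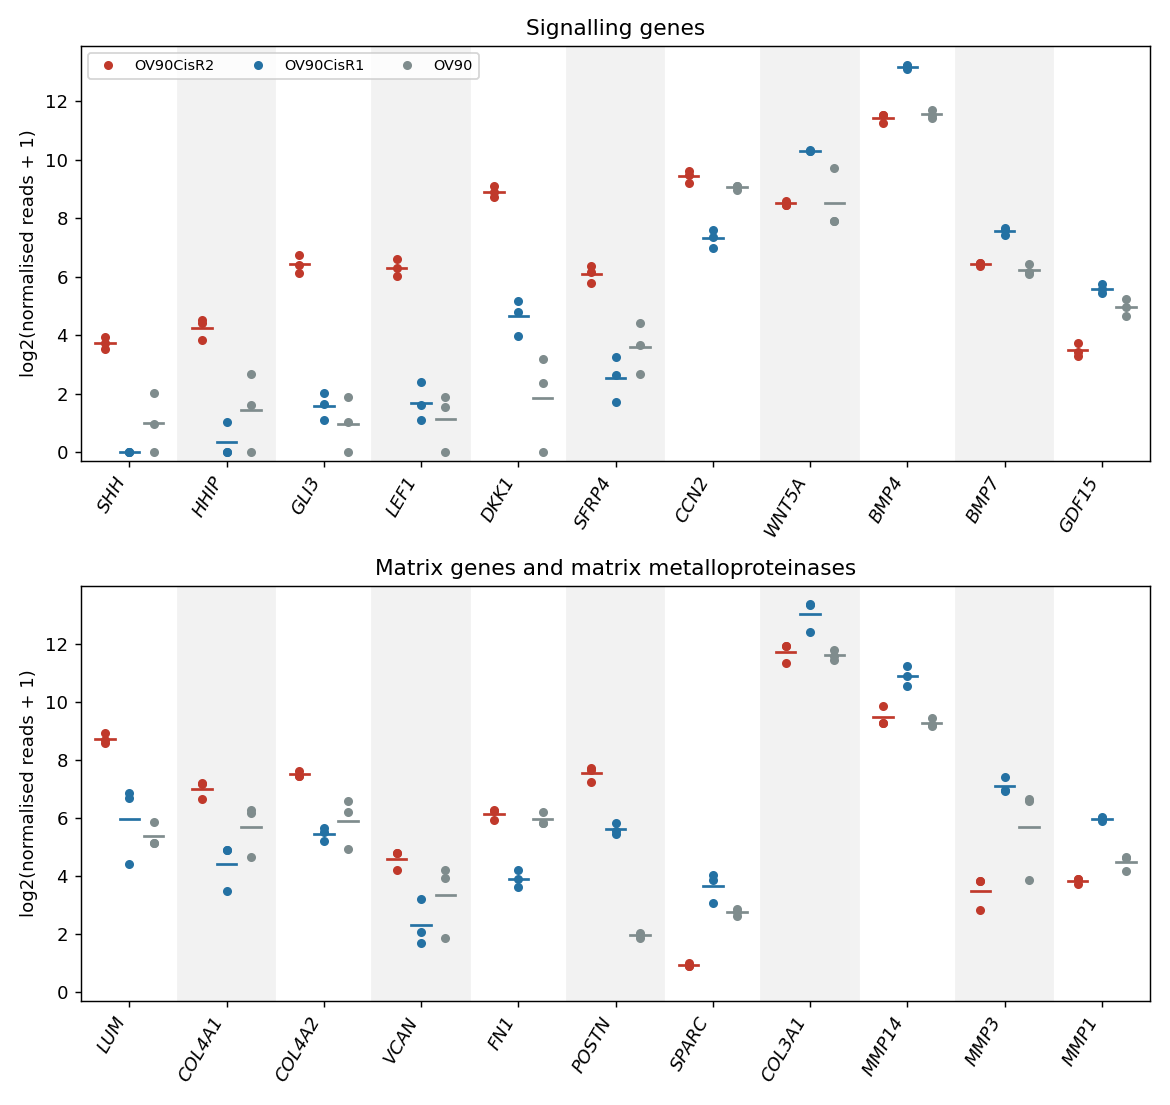
Log2(normalised reads + 1) of signalling genes (upper panel) and of matrix genes and metalloproteinases (lower panel), with 1 point per library, a bar at the group mean, and OV90CisR2, OV90CisR1 and OV90 from left to right for each gene. LEF1, DKK1, SFRP4 and CCN2 are higher and WNT5A, BMP4 and the metalloproteinases lower in OV90CisR2 than in OV90CisR1, with BMP4 at 2439 to 2929 in OV90CisR2 against 8721 to 9539 normalised reads in OV90CisR1.

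Genes of epithelial-mesenchymal transition did not move one way. Of 32 tested mesenchymal markers, 9 rose and 3 fell (median log2 fold change 0.31), and of 17 tested epithelial junction and keratin genes 4 rose and 1 fell (median 0.15). In these lists 37.5% and 29.4% were called, against 10.1% of all tested genes. Without OV90CisR2 replicate 1 the rises were 5 and 2, without OV90CisR2 replicate 3 the epithelial rises were 2, and without OV90 replicate 3 the epithelial falls were 3. ACTA2, smooth muscle actin, had 29.7, 34.1 and 22.0 normalised reads in OV90CisR2, against 2.07, 0 and 6.74 in OV90CisR1, with a log2 fold change of 3.34 ± 0.63 (SE; adjusted p = 0.00854 in limma) that was 2.58 without OV90CisR1 replicate 2 and 4.06 without OV90CisR1 replicate 3. It overlaps FAS, so reads of the 2 are uncertain. DSP, the desmosomal plaque protein, had 47.1, 56.0 and 53.7 normalised reads in OV90CisR2, against 4.13, 6.36 and 2.25 in OV90CisR1, with a log2 fold change of 3.42 ± 0.48 (SE; adjusted p = 0.00196 in limma). Both markers were thus higher in OV90CisR2, although one marks mesenchymal and the other epithelial cells. DSP, and GSC below, reached the filter only through the OV90CisR2 libraries, which favours a rise. VIM, the intermediate filament of mesenchymal cells, had 21834, 16889 and 21495 normalised reads in OV90CisR2, against 28456, 23910.4 and 10552 in OV90CisR1, with 39747, 33297 and 35104 in OV90. It did not pass (adjusted p = 0.935 in limma). Its 2 groups overlapped, and OV90CisR1 replicate 3 was the lowest library. Without it the log2 fold change was -0.39 (adjusted p = 0.174), a value that passed when OV90 replicate 3 was also left out (adjusted p = 0.0299). Among transcription factors of the transition, GSC, a homeobox factor of the gastrula organizer, had 13.3, 9.62 and 7.04 normalised reads in OV90CisR2, against 0, 2.12 and 1.12 in OV90CisR1 and lost its call without OV90CisR1 replicate 1 or any 1 OV90CisR2 library (adjusted p = 0.0632 to 0.107). ZEB2 had 190.4, 220.4 and 179 normalised reads in OV90CisR2, against 459.7, 354 and 393 in OV90CisR1, with a log2 fold change of -1.03 ± 0.24 (SE; adjusted p = 0.0238 in limma), but lost its call without OV90CisR1 replicate 1 or any OV90CisR2 library (adjusted p = 0.0553 to 0.106).

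Surface and guidance genes shifted in both directions. ITGAV and ITGB1, subunits of fibronectin and vitronectin receptors, fell with 393, 461 and 423 normalised reads in OV90CisR2, against 1105, 1102 and 1057 in OV90CisR1 for ITGAV (log2 fold change -1.35 ± 0.13 (SE; adjusted p = 0.000298 in limma)). ITGB1 had 1642, 1878 and 1513 normalised reads in OV90CisR2, against 2955, 3218 and 2533 in OV90CisR1, with a log2 fold change of -0.79 ± 0.13 (SE; adjusted p = 0.00485 in limma). The 14 integrin subunits tested also held 3 that rose, ITGA11, ITGA1 and ITGAE (35.7% of the list called, against 10.1% of all tested genes). Of these 3, 0 were called without OV90CisR2 replicate 1 or 3. SLIT2, a repulsive guidance ligand, had 242, 161 and 209 normalised reads in OV90CisR2, against 1212, 1327 and 671 in OV90CisR1, with a log2 fold change of -2.35 ± 0.38 (SE; adjusted p = 0.00440 in limma). ROBO2, its receptor, had 0 reads in OV90CisR2 and 76 in OV90CisR1, at least 9.77-fold lower against a floor of 3 reads per library. Ligand and receptor thus fell together. Among 35 tested guidance genes 4 rose and 4 fell (22.9% called, against 10.1% of all tested genes), with 2 falls without OV90CisR1 replicate 1 or 2 or any OV90CisR2 library. CDH12, a cadherin of neurons, had 2 reads in OV90CisR2 and 78 in OV90CisR1, a ratio of 45.4 (95% counting interval 12.1 to 381.1) in favour of OV90CisR1. JAG1, a Notch ligand, fell by 1.29 on the log2 scale (adjusted p = 0.0305 in limma), a call lost without OV90CisR1 replicate 1 or 2 or any OV90CisR2 library (adjusted p = 0.0824 to 0.114). PDGFC, a growth factor, had 62.4, 55.1 and 88.0 normalised reads in OV90CisR2, against 14.5, 12.7 and 18.0 in OV90CisR1, with a log2 fold change of 2.10 ± 0.31 (SE; adjusted p = 0.00239 in limma). MERTK, a receptor of apoptotic cells, had 38.9, 44.6 and 36.9 normalised reads in OV90CisR2, against 106, 92.3 and 134 in OV90CisR1, with a log2 fold change of -1.43 ± 0.22 (SE; adjusted p = 0.00328 in limma).

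Developmental transcription factors beyond HOXD included TBX2, a relative of TBX3 that fell. TBX2 had 602, 659.6 and 548 normalised reads in OV90CisR2, against 1596, 1644 and 2202 in OV90CisR1, with 383, 360.1 and 1103 in OV90 and a log2 fold change of -1.58 ± 0.34 (SE; adjusted p = 0.0170 in limma). TBX3 and TBX2 thus went opposite ways, though the TBX2 call was lost on leaving out any OV90CisR2 library (adjusted p = 0.0509 to 0.0767). Of 40 tested factors 8 rose and 2 fell (25% called, against 10.1% of all tested genes). There were 2 rises and 0 falls without OV90CisR2 replicate 3 and 5 rises and 0 falls without OV90CisR2 replicate 1. Counts were 4 rises and 1 fall without OV90CisR2 replicate 2, and 5 rises without OV90CisR1 replicate 1 or 2. TBX18, a T-box factor of mesothelium and heart, had 18.4, 12.2 and 21.1 normalised reads in OV90CisR2, against 2.07, 1.06 and 1.12 in OV90CisR1. The TBX18 call was lost without OV90CisR2 replicate 3 (adjusted p = 0.0567). NR5A2, a nuclear receptor of the liver and ovary that was chosen after its values were seen, had 108, 111 and 130.2 normalised reads in OV90CisR2, against 6.20, 5.30 and 1.12 in OV90CisR1, was at 0, 0 and 0 in OV90, and had a log2 fold change of 4.68 ± 0.50 (SE; adjusted p = 0.000500 in limma). TENM2, a neuronal adhesion protein chosen the same way, had 102, 112 and 102 normalised reads in OV90CisR2, against 0, 4.24 and 2.25 in OV90CisR1, with the largest positive log2 fold change of all tested genes, 5.37 ± 0.59 (SE; adjusted p = 0.000574 in limma), which was 4.69 without OV90CisR1 replicate 1. Among hormones, GCG and PRL fell and CALCB and EDN1 rose, of 14 tested (28.6% called, against 10.1% of all tested genes). There were 4 falls without OV90 replicate 3 and 1 rise without OV90CisR1 replicate 1 or 3 or any 1 OV90CisR2 library. PRL, prolactin, had 996, 1031 and 929.9 normalised reads in OV90CisR2, against 2674, 2799.9 and 2606 in OV90CisR1, with 658, 594 and 897 in OV90 and a log2 fold change of -1.45 ± 0.15 (SE; adjusted p = 0.000411 in limma). CALCB, a calcitonin gene-related peptide, had 59.4, 60.4 and 52.8 normalised reads in OV90CisR2, against 3.10, 3.18 and 4.49 in OV90CisR1, with a log2 fold change of 3.68 ± 0.35 (SE; adjusted p = 0.000241 in limma). EDN1, endothelin, lost its call without OV90CisR1 replicate 1 or 3 or any OV90CisR2 library (adjusted p = 0.0522 to 0.142). CGA, the shared subunit of glycoprotein hormones, had 5950.1, 6209.8 and 6235 normalised reads in OV90CisR2, against 1760.2, 2059.6 and 2271 in OV90CisR1 and missed the threshold (log2 fold change 1.60 ± 0.73 (SE; adjusted p = 0.181 in limma)), but passed without OV90 replicate 3 (adjusted p = 0.00120). The 2 lines did not overlap for CGA, and OV90 held 15.4, 29.2 and 0.899.

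Drug transport genes changed in both directions, mostly on calls that rested on single libraries. Among copper and platinum transport genes COX17 rose and LRRC8D and TMEM205 fell, and of 24 ABC transporters 1 rose and 3 fell (16.7% called, against 10.1% of all tested genes). ABCC9, a potassium channel regulator of that family, had 61.4, 85.7 and 55.4 normalised reads in OV90CisR2, against 5.17, 17.0 and 4.49 in OV90CisR1, with a log2 fold change of 2.99 ± 0.53 (SE; adjusted p = 0.00668 in limma), with an adjusted p of 0.0648 at a pseudocount of 0.1. SLC31A1, the copper transporter that also admits cisplatin, had 158, 205 and 181 normalised reads in OV90CisR2, against 239.7, 255 and 228 in OV90CisR1. It did not pass (adjusted p = 0.0985 in limma). LRRC8D, a volume-regulated channel subunit through which cisplatin can enter, fell by 0.84 on the log2 scale (adjusted p = 0.0163 in limma), a call lost without OV90CisR1 replicate 1 or OV90CisR2 replicate 1 or 3 (adjusted p = 0.0528 to 0.0859). The calls of 5 further genes were lost on leaving out any 1 OV90CisR2 library, and some without an OV90CisR1 or OV90 library too: COX17 (adjusted p up to 0.129), TMEM205 (up to 0.133), ABCA1 (up to 0.123), ABCA3 (up to 0.132) and ABCC5 (up to 0.0933).

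GSTP1, the glutathione transferase most tied to platinum conjugates, had 4389, 4806 and 5090.3 normalised reads in OV90CisR2, against 3142, 3172 and 4853 in OV90CisR1 and did not pass (adjusted p = 0.162 in limma), but did without OV90CisR1 replicate 3 (adjusted p = 0.00911). Of 39 glutathione, thioredoxin, ferritin and NRF2 genes, 4 rose and 2 fell (15.4% called, against 10.1% of all tested genes). Without OV90CisR2 replicate 1 or 3 there were 0 rises and 1 fall, and without OV90 replicate 3 there were 8 and 4. FTH1, ferritin heavy chain, had 2655, 2041 and 2630.5 normalised reads in OV90CisR2, against 1429, 1435 and 575 in OV90CisR1 (log2 fold change 1.20 ± 0.30 (SE; adjusted p = 0.0305 in limma)), and TXNRD1, thioredoxin reductase, had 381, 261 and 342 normalised reads in OV90CisR2, against 256, 177 and 137 in OV90CisR1 (log2 fold change 0.81 ± 0.23 (SE; adjusted p = 0.0442 in limma)). The FTH1 call was lost on leaving out any 1 OV90CisR2 library (adjusted p = 0.0611 to 0.119), and the TXNRD1 call without 7 of the 9 libraries in turn, all but OV90 replicate 3 and OV90CisR1 replicate 1 (adjusted p = 0.0547 to 0.170). ALDH1A1, a retinal dehydrogenase often used as a stem cell marker, had 1837, 1702 and 1979 normalised reads in OV90CisR2, against 839, 815 and 436 in OV90CisR1, with a log2 fold change of 1.46 ± 0.24 (SE; adjusted p = 0.00443 in limma). OV90CisR2 was the higher line for it in every library. Of 14 aldehyde dehydrogenases 3 rose and 0 fell (21.4% called, against 10.1% of all tested genes). Falls were likewise 0 at an unadjusted p below 0.05 in limma and 0 with edgeR or DESeq2. The ALDH1A3 call was lost without OV90 replicate 1 or 2, OV90CisR1 replicate 1 or 2 or any OV90CisR2 library (adjusted p = 0.0533 to 0.169 in limma). That left 2 rises. Beside 10.1% called over all tested genes, the repair lists had 2 of 41 homologous recombination and Fanconi genes, 1 rise and 1 fall of 27 excision repair genes and 1 of 18 mismatch repair and translesion genes. In each of the 3 repair lists 0 were called without OV90CisR2 replicate 1 or 3. Of 23 BCL2 family and apoptosis genes 0 passed in limma, at a background of 10.1%, 3 had an unadjusted p below 0.05, and edgeR called 0 and DESeq2 2. Without OV90 replicate 3 there was 1 rise, and without both libraries that stood apart 5 rose and 1 fell. MDM2, the p53 antagonist and target, had 514, 485 and 523 normalised reads in OV90CisR2, against 298, 282 and 283 in OV90CisR1, with a log2 fold change of 0.82 ± 0.13 (SE; adjusted p = 0.00346 in limma). PLK2, a kinase induced by p53, had 233, 212 and 201 normalised reads in OV90CisR2, against 56.8, 48.8 and 25.8 in OV90CisR1, with a log2 fold change of 2.34 ± 0.37 (SE; adjusted p = 0.00374 in limma). Of 27 p53 targets 4 rose and 1, GDF15, fell (18.5% called, against 10.1% of all tested genes), with 7 rises without OV90CisR1 replicate 3 and 3 falls without OV90 replicate 3.

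Ribosomal protein and cell cycle genes that passed the threshold were all higher in OV90CisR2. Of 73 cytosolic ribosomal protein genes 15 rose and 0 fell (also 0 at an unadjusted p below 0.05 in limma and 0 with edgeR or DESeq2), and 69 had a positive log2 fold change, with a median of 0.41 that ranged from 0.36 to 0.44 as single libraries were left out. The count itself ran from 1 without OV90CisR2 replicate 3 to 27 without OV90 replicate 3, and was 56 without both libraries that stood apart. With all libraries 20.5% of this list was called, against 10.1% of all tested genes. RPS27 had 5412, 5513 and 5634 normalised reads in OV90CisR2, against 2713, 2768 and 1836 in OV90CisR1, with a log2 fold change of 1.20 ± 0.16 (SE; adjusted p = 0.00132 in limma), and near-identical pseudogenes make such counts uncertain. Of 55 cell cycle genes 6 rose and 0 fell (the falls were also 0 at an unadjusted p below 0.05 in limma and 0 with edgeR or DESeq2), with a median of 0.31 and 50 positive values, and the count was 0 on leaving out any 1 OV90CisR2 library and 14 without OV90 replicate 3. The share of this list called, 10.9%, lay near the 10.1% over all tested genes, though that background holds both rises (5.16%) and falls (4.90%). RRM2, a subunit of ribonucleotide reductase, had 2765, 2884 and 3023 normalised reads in OV90CisR2, against 1767, 1609 and 1417 in OV90CisR1, with a log2 fold change of 0.86 ± 0.18 (SE; adjusted p = 0.0138 in limma). OV90CisR2 was higher in each library, but the call was lost on leaving out any OV90CisR2 library (adjusted p = 0.0517 to 0.0697).

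Interferon-stimulated genes that passed the threshold were all lower in OV90CisR2, and antigen presentation genes changed in both directions. Of 26 interferon-stimulated genes 0 rose and 4 fell (median -0.10), and of 17 antigen presentation genes 1 rose and 3 fell (median -0.14). The shares called were 15.4% and 23.5%, against 10.1% of all tested genes. Of interferon-stimulated genes 2 were higher at an unadjusted p below 0.05 in limma, edgeR and DESeq2 called 0 rises, and 1 rose without OV90 replicate 3 or OV90CisR1 replicate 3. The antigen presentation gene that rose, the immunoproteasome subunit PSMB9, had 152, 138 and 157 normalised reads in OV90CisR2, against 106, 64.7 and 85.4 in OV90CisR1 and lost its call without OV90 replicate 2, OV90CisR1 replicate 2 or any 1 OV90CisR2 library (adjusted p = 0.0644 to 0.155). The 4 falls became 7 without OV90 replicate 3, and the 3 falls became 0 without OV90CisR2 replicate 1. IFIT1, an antiviral RNA-binding protein, had 12.3, 16.6 and 15.0 normalised reads in OV90CisR2, against 55.8, 61.5 and 55.1 in OV90CisR1, with 65.8, 68.1 and 26.1 in OV90 and a log2 fold change of -1.91 ± 0.35 (SE; adjusted p = 0.00787 in limma). HLA-E, a ligand of natural killer cell receptors, had 602, 641 and 706 normalised reads in OV90CisR2, against 1580.5, 1673 and 1808 in OV90CisR1, with a log2 fold change of -1.38 ± 0.27 (SE; adjusted p = 0.0108 in limma); its call was lost without OV90CisR2 replicate 1 (adjusted p = 0.0575). IFIT3 had 3.07, 7.87 and 11.4 normalised reads in OV90CisR2, against 44.4, 56.2 and 69.7 in OV90CisR1 and lost its call without the same library (adjusted p = 0.0716). All 3 genes were lower in every OV90CisR2 library than in every OV90CisR1 library. S100A6, a calcium-binding protein, had 5.12, 5.25 and 2.64 normalised reads in OV90CisR2, against 79.5, 62.6 and 51.7 in OV90CisR1, with a log2 fold change of -3.64 ± 0.37 (SE; adjusted p = 0.000357 in limma), against the rise of S100A10 from the same gene cluster.

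**Figure D5:**
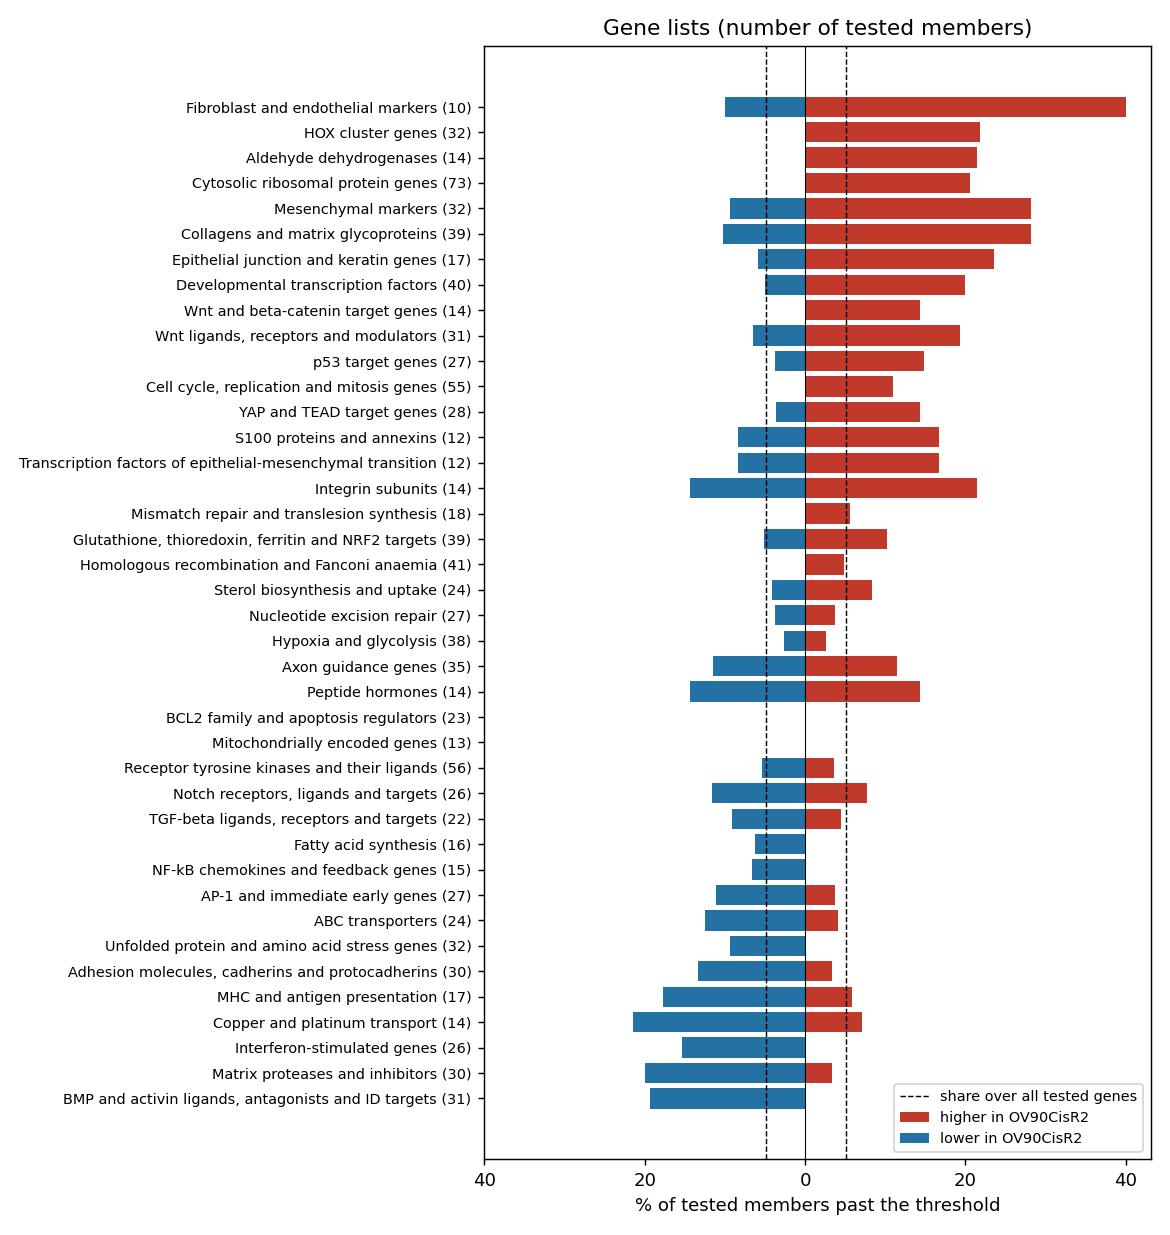
Share of tested members past the threshold (horizontal axis, %) in the 40 gene lists with at least 10 tested members, with rises to the right and falls to the left and the number tested in parentheses; dashed lines mark the shares over all tested genes. With all 9 libraries in the fit, rises only were seen for HOX, ribosomal protein, aldehyde dehydrogenase, cell cycle, Wnt target, homologous recombination and mismatch repair genes. Falls only were seen for BMP and activin, interferon-stimulated, unfolded protein, fatty acid synthesis and NF-kB genes, and some of these lists rest on few called genes. Homologous recombination (2 of 41), mismatch repair (1 of 18), fatty acid synthesis (1 of 16) and NF-kB genes (1 of 15) lay near the dashed lines. For these lists no direction is read.

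Other genes, chosen after their values were seen, gave some of the widest gaps, and the first pair handles lipids. CD36, a fatty acid and thrombospondin receptor, had 141 reads in OV90CisR2 and 3 in OV90CisR1, a ratio of 40.4 (95% counting interval 13.6 to 198.3), and OV90 was at 0. PLIN2, a lipid droplet coat protein, had 4.09, 0 and 0 normalised reads in OV90CisR2, against 51.6, 35.0 and 30.3 in OV90CisR1, with 8.23, 8.76 and 7.20 in OV90 and a log2 fold change of -4.50 ± 0.61 (SE; adjusted p = 0.00171 in limma). The value was -5.29 without OV90CisR2 replicate 1. One gene was thus nearly absent from OV90CisR1 and the other from OV90CisR2. SDC2, a heparan sulfate proteoglycan, had 83.9, 84.0 and 100.3 normalised reads in OV90CisR2, against 6.20, 6.36 and 3.37 in OV90CisR1, with 62.7, 71.1 and 72.0 in OV90 and a log2 fold change of 3.87 ± 0.28 (SE; adjusted p = 3.99e-05 in limma). IGFBP7, a secreted growth factor binder, had 50.1, 35.9 and 38.7 normalised reads in OV90CisR2, against 3.10, 3.18 and 1.12 in OV90CisR1, with a log2 fold change of 3.67 ± 0.55 (SE; adjusted p = 0.00289 in limma). CDC42EP3, an effector of the CDC42 GTPase, had 61.4, 61.2 and 58.1 normalised reads in OV90CisR2, against 5.17, 2.12 and 3.37 in OV90CisR1, with a log2 fold change of 3.80 ± 0.43 (SE; adjusted p = 0.000618 in limma). HSPB3, a small heat shock protein, had 100 reads in OV90CisR2 and 0 in OV90CisR1, at least 9.498-fold higher against a floor of 3 reads per library. All of these except PLIN2 were higher in OV90CisR2.

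By position, 292 windows of 10 Mb held at least 10 tested genes, and the middle 90% of their median log2 fold changes ran from -0.20 to 0.31. The highest medians were on chromosome 6, at 10 to 20 Mb with 0.70 over 33 genes (11 rose, 0 fell) and at 130 to 140 Mb with 0.63 over 35 genes (8 rose, 0 fell). RBM24, an RNA-binding protein of muscle in the first of these windows, had 37.9, 42.9 and 58.9 normalised reads in OV90CisR2, against 2.07, 3.18 and 4.49 in OV90CisR1, with a log2 fold change of 3.50 ± 0.61 (SE; adjusted p = 0.00614 in limma). The next highest were 0.50 over 18 genes at 70 to 80 Mb of chromosome 13 (3 rose, 1 fell) and 0.49 over 36 genes at 110 to 120 Mb of chromosome 6 (11 rose, 0 fell), which were 0.11 and 0.29 without OV90CisR1 replicate 3. In the first window the OV90CisR2 medians against the OV90 mean were 0.24, 0.28 and 0.23, and the OV90CisR1 medians were -0.37, -0.33 and -0.44, so the 2 lines lay on opposite sides of OV90. In the second they were 0.41, 0.37 and 0.41 in OV90CisR2, against 0.08, 0.16 and -0.0023 in OV90CisR1. The lowest medians were -0.45 over 32 genes at 80 to 90 Mb of chromosome 10 and -0.44 over 27 genes at 180 to 190 Mb of chromosome 2. As single libraries were left out, the first chromosome 6 window had a median of 0.56 to 0.81, but its rises were 4, 5 and 5 without OV90CisR2 replicate 1, 2 and 3 and 6 without OV90CisR1 replicate 1. Those of the second were 4 on leaving out any 1 OV90CisR2 library and 13 without OV90 replicate 3, and those at 110 to 120 Mb were 3, 5 and 2 without OV90CisR2 replicate 1, 2 and 3 and 7 without OV90CisR1 replicate 1. These are descriptions of these libraries, and DNA copy number was not measured.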

How the data were processed

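Messenger RNA of 9 libraries was profiled by 3' end sequencing. The authors deposited 1 table of normalised signal, on a scale of reads, for 43424 genes. The tools named in the submitters' processing notes are Bowtie2, bedtools and edgeR, with build GRCh38; no version, annotation, counting or strand rule is given in those notes or the labels. In each column of the deposited signal 100% of values were whole multiples of the value of 1 read (tolerance 1e-06), and the factors equalled median-of-ratios size factors, so whole reads were recovered (5825708 to 7607679 per library; 3 reads equal 2.62 to 3.37 normalised reads). Reads of such a kit are not independent molecules, and counting intervals and floors cover counting error only.

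Genes reaching 1 CPM (scaled to the column total) in 3 of 9 libraries were tested on log2(value + 1) by limma 3.58.1 in R 4.3.3. A gene near 0 in both other groups entered only through the line where it was high, which favours a call in that direction. Besides genes marked so in the text, examples for OV90CisR2 are TBX18, NR5A2, LINC01116, MIR10B, HAGLROS, CD36 and HSPB3. Examples for OV90CisR1 are ROBO2, CDH12 and SPARC. The model had 1 mean for each group, used all 9 libraries and let the variance follow the mean, with Benjamini-Hochberg adjustment and a threshold of 0.05. The procedure was tested on simulated data. Alternatives used pseudocounts of 0.1 and 5, other filters, quantile and TMM scaling, a fit of 6 libraries, a replicate block, other variance estimates, quality weights, edgeR 4.0.16 quasi-likelihood and DESeq2 1.42.0 on the recovered reads, each library left out, and 2 libraries left out together.

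The libraries compared, the 43 gene lists (1520 entries, all matched, 14 through an alias) and the named-gene rule were chosen with earlier results of these data known. The rule takes the 12 largest rises and 12 largest falls of at least 2-fold among called genes whose lines did not overlap in value and whose mean exceeded the tested-gene median, up to 3 rises and 3 falls of each list or window described, and a fixed panel. Genes outside it were chosen after their values were seen; besides those marked so in the text, these are HOXD10, HOXD11, HOXD13, HOXA7, BMP7, BMPR1A, BMPR2, COL4A2, CRIM1, DKK3, FZD6 and WLS, and HOXD1, HOXD4, HOXD12, EVX2 and VCAN in figures. Positions and promoters are those of RefSeq on GRCh38.p14. Some genes of the lists are not reported here.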

Additional observations from a re-analysis of the deposited data

How the results depend on the processing

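The count of genes past the threshold, 1433, was 3750 when OV90 replicate 3 and OV90CisR1 replicate 3 were both omitted, 4226 under quality weights and 875 in the fit with a replicate block, and ranged from 442 to 2327 when each library was left out in turn. The count changed at least 2-fold, 673, was 1089 under quality weights, 926 with the same 2 libraries omitted, and ranged from 322 to 867 when each library was left out. The share of rises, 51.3%, was 47.2% with edgeR, 54.6% without the 2 libraries together, and 48.4% to 54.5% when each library was left out. Under the other alternatives these results stayed within the bounds set for them, with 1071 calls with no variance trend, 1731 in the fit of 6 libraries and 2014 with DESeq2. VIM, not called with all libraries at 0.05 on the log2 scale, was -0.39 without OV90CisR1 replicate 3, with or without OV90 replicate 3, and passed only when both were omitted; it was 0.33 without OV90CisR1 replicate 1, and -0.25 under quality weights, -0.08 with edgeR and -0.07 with DESeq2, not called in these. The fewer calls with a library left out follow in part from fewer samples in the fit. Over 200 named genes and all alternatives, 4058 comparisons kept the side of the threshold, 461 lost the call, 41 gained it and 1 reversed. The 4058 include changes of sign where neither fit called the gene, as for VIM, and only for called genes do they mean that the direction was kept. Replicate numbers did not pair the lines: deviations of same-numbered libraries correlated at 0.090, -0.31 and -0.23, so the replicate block is given for its count of calls only. Genes with few reads are limited by depth, since 3 reads are worth 2.62 to 3.37 normalised reads.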
